A study of Mus musculus with 8 samples.

Results

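The MCP and eotaxin chemokines are small secreted proteins that attract monocytes and eosinophils. The 6 genes examined were Ccl2, Ccl7, Ccl12 and Ccl8, which encode monocyte chemoattractant proteins (MCPs), and Ccl11 and Ccl24, which encode eotaxins. They were picked by gene symbol, with no threshold on measured values, and all 6 were among the 28918 genes of the expression table. The samples were subcutaneous tumors of B16-mhgp100, a line of the mouse melanoma B16 that carries a gp100 antigen, grown in C57BL/6 mice. One group carried over-expressed Colq, the gene of the collagen-like tail that anchors acetylcholinesterase at the neuromuscular junction, and the other carried the vector alone. The mice of both groups were given anti-PD-1, which blocks an inhibitory receptor on T cells, so that no group was without it: 4 doses of 200 µg, 2 per week, from day 10, with harvest 1 day after the last dose. The 3 Colq tumors gave 1 library each, and the 3 vector tumors gave 5 libraries, since 2 of them were sequenced as 2 portions. The promoter that drives Colq, the number of clones and the age of the mice are not stated in the labels.

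MCPs are released by macrophages, fibroblasts, endothelial cells and tumor cells after inflammatory signals. Ccl2, Ccl7 and Ccl12 act on the receptor Ccr2 and draw classical monocytes out of bone marrow and into tissue, whereas mouse Ccl8 has been described as a ligand of Ccr8, a receptor of some T helper cells. Ccl11 and Ccl24 act on Ccr3, the main chemokine receptor of eosinophils. In tumors, the Ccl2 and Ccr2 axis is best known for supplying the monocytes that become tumor macrophages.

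In the GRCm38 annotation, 5 of the 6 genes lie on the plus strand of chromosome 11, within 81.2 kb that wholly contains no other annotated gene. In order of position these are Ccl2 (ENSMUSG00000035385, 82035571 to 82037453), Ccl7 (ENSMUSG00000035373, 82045712 to 82047525), Ccl11 (ENSMUSG00000020676, 82057823 to 82062955), Ccl12 (ENSMUSG00000035352, 82101845 to 82103400) and Ccl8 (ENSMUSG00000009185, 82115185 to 82116799). Ccl24 (ENSMUSG00000004814) lies on the minus strand of chromosome 5, 135569937 to 135573049. These positions are from GRCm38, whereas the authors quantified on mm39. Ccl2 overlaps the minus-strand model Gm17268, with 0 shared exonic bases, and the libraries kept no strand.

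The family is named for 2 adjacent cysteines, which all 6 coding sequences carry. The stretches below surround the first 2 adjacent cysteine codons of each coding sequence. They are read 5′ to 3′ from the GENCODE transcripts, with the codons of both cysteines in capitals.
Ccl2: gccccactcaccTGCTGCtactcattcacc
Ccl7: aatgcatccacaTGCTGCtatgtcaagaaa
Ccl12: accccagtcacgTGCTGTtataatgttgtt
Ccl8: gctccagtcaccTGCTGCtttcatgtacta
Ccl11: atcccaacttccTGCTGCtttatcatgacc
Ccl24: gtagcctgcgcgTGTTGCatcttccccata
In these stretches, Ccl12 and Ccl24 each show a TGT codon beside a TGC codon. The Ccl24 pair is at codons 19 and 20, whereas the pairs of the other members lie between codons 32 and 35. The Ccl24 stretch thus lies nearer the start and should not be read as the family's defining site. Coding sequences of the members were between 63.7% (Ccl12 and Ccl24) and 72.1% (Ccl2 and Ccl7) identical over their aligned bases. The longest exact stretch that transcripts of any pair shared was 23 bases, between Ccl2 and Ccl7, and the shortest such maximum was 10 bases.

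RefSeq promoter windows were at hand for 2 members, Ccl12 and Ccl8, the neighbours at the distal end of the cluster. No other member had a window, so the pair was not picked for its values. Of the 5 cluster genes, this pair differed most in its change between groups, and whether the windows bear on that was not tested. Each run below holds the 120 bases before the start on the plus strand of GRCm38.p6, with motif matches in capitals.
Ccl12, chr11:82101725-82101844: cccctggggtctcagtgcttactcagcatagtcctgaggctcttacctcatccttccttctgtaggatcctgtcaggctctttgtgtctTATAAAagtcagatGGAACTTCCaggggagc
Ccl8, chr11:82115065-82115184: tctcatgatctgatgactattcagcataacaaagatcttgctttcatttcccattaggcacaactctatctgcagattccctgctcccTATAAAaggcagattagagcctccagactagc
Both hold TATAAA, the letters of a TATA box, at -31 to -26 in Ccl12 and at -32 to -27 in Ccl8, counted from the start. Ccl12 alone of the pair holds GGANNTTCC, searched for NF-kB, at -17 to -9, and this motif reads alike on both strands. Of 32851 promoter windows of 250 bases before to 50 after the start, searched on both strands, 13.6% hold TATAAA and 4.3% hold GGANNTTCC. Neither window held the letters searched for STAT (TTCNNNGAA, in 8.3% of windows), AP-1 (TGANTCA, 7.8%), C/EBP (TTNNGNAA, 40.7%), the interferon response (GAAANNGAA, 8.6%) or the GC box (GGGCGG, 35.7%). These matches describe letters in a window, and both windows were 65.0% identical over 277 aligned bases.

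Levels are in TPM, a share of transcripts scaled per length that can be compared between genes. The reads behind a TPM value cannot be recovered, so depth is unknown here; the libraries held 19887 to 21602 genes above 0. Colq itself measured 4.05, 5.03 and 3.86 TPM in its own group, and 0 to 0.24 TPM in the 5 vector libraries (log2 fold change 2.24, limma, adjusted p = 2.8e-05). This does not tell the introduced gene from that of host muscle. Colq passed the minimum mean of 1 TPM for the fit only through its own group, so the filter favored its call. The Colq libraries differed little from one another: the median absolute log2 difference over all tested genes was 0.106 to 0.111 between them. It was 0.144 and 0.219 between portions of 1 vector tumor and 0.148 to 0.225 between first portions of different vector tumors. The labels call the tumors separate samples but do not say how the mice were kept, so p-values measure the spread between these samples. Summed skeletal muscle markers reached 993.7 to 1011 TPM in the Colq libraries against 34.9 to 184.7 TPM in the vector libraries, and summed melanoma markers at 10950 to 11270 and 17600 to 22340 TPM.

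All 4 MCP transcripts were higher in Colq tumors, and Ccl8 stood far above the others. Ccl8 measured 844.9, 891.2 and 904.5 TPM in Colq tumors 1 to 3. In the vector libraries it measured 123.7 and 92.28 TPM (portions of tumor 1), 246.3 and 65.41 TPM (portions of tumor 2) and 104.6 TPM (tumor 3). The groups did not overlap, and the first portion of vector tumor 2 was the highest of its group. Means were 880.2 ± 31.2 TPM and 122.8 ± 28.7 TPM (SD, n = 3 tumors each), a 7.17-fold difference, with a log2 fold change of 2.96 (SE 0.082, 95% interval 2.77 to 3.15; limma, adjusted p = 3.8e-06). This interval leaves out the spread between portions, which were averaged. With tumor as a random block over all libraries, the SE was 0.327 (95% interval 2.20 to 3.67). The log2 fold change of Ccl8 was 2.57 with first portions only, and 3.34 with second portions where a tumor had them. On the log2(TPM + 1) scale used for fold changes, differences of low genes are understated.

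Ccl7 stood next in Colq tumors, at 145.2, 139.0 and 145.5 TPM. Its vector libraries held 38.11 and 27.72 TPM (tumor 1), 64.74 and 49.89 TPM (tumor 2) and 53.60 TPM (tumor 3). Every Colq library lay above every vector library, and vector tumor 1 was lowest in both of its portions. The means of 143.2 ± 3.65 and 47.9 ± 13.1 TPM (SD, n = 3 each) differed 2.99-fold, with a log2 fold change of 1.61 (SE 0.19, 95% interval 1.16 to 2.06; limma, adjusted p = 0.00023).

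Ccl2, the best studied monocyte attractant of the family, measured 122.0, 115.2 and 114.0 TPM in Colq tumors. Its vector values were 47.38 and 19.82 TPM (tumor 1), 69.22 and 51.81 TPM (tumor 2) and 69.68 TPM (tumor 3). The groups were apart, but this was the most variable of the 4 MCP transcripts among vector tumors. Means were 117.0 ± 4.33 and 54.6 ± 18.8 TPM (SD, n = 3 each), 2.14-fold apart, with a log2 fold change of 1.20 (SE 0.27, 95% interval 0.56 to 1.83; limma, adjusted p = 0.0052). With the closely alike Colq libraries averaged and counted as 1 sample, the call of Ccl2 was lost (log2 fold change 1.20, limma, adjusted p = 0.11).

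Ccl12, an MCP of the mouse, showed the smallest change of the 4. It measured 64.66, 64.79 and 64.70 TPM in Colq tumors, against 35.01 and 24.32 TPM (vector tumor 1), 35.89 and 42.70 TPM (tumor 2) and 35.83 TPM (tumor 3). The Colq values were nearly equal, with a coefficient of variation of 0.103%, and lay above every vector value. Means were 64.7 ± 0.067 and 34.9 ± 4.88 TPM (SD, n = 3 each), a 1.85-fold difference, with a log2 fold change of 0.89 (SE 0.11, 95% interval 0.64 to 1.14; limma, adjusted p = 0.00021).

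Both eotaxin transcripts were low in vector tumors and higher in Colq tumors. Ccl11, made mainly by fibroblasts and other stromal cells, stood at 19.85, 18.51 and 16.57 TPM in Colq tumors. In the vector libraries it stood at 2.10 and 2.73 TPM (tumor 1), 5.21 and 2.06 TPM (tumor 2) and 2.28 TPM (tumor 3). The groups did not overlap, with means of 18.3 ± 1.65 and 2.78 ± 0.75 TPM (SD, n = 3 each), 6.59-fold apart. The log2 fold change was 2.40 (SE 0.14, 95% interval 2.07 to 2.73; limma, adjusted p = 1.7e-05).

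Ccl24, the other eotaxin, made largely by macrophages, measured 1.33, 2.21 and 1.74 TPM in Colq tumors. It was listed at 0 in 4 of the 5 vector libraries and at 0.27 TPM in the first portion of vector tumor 2. Its mean over the 6 tumors, 0.90 TPM, was under the minimum of 1 TPM for the fit, so Ccl24 was not tested there. The difference of group means on the log2(TPM + 1) scale was 1.40, with an exact two-sided permutation p of 0.1, the smallest that 3 tumors against 3 allow.

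**Figure D1:**
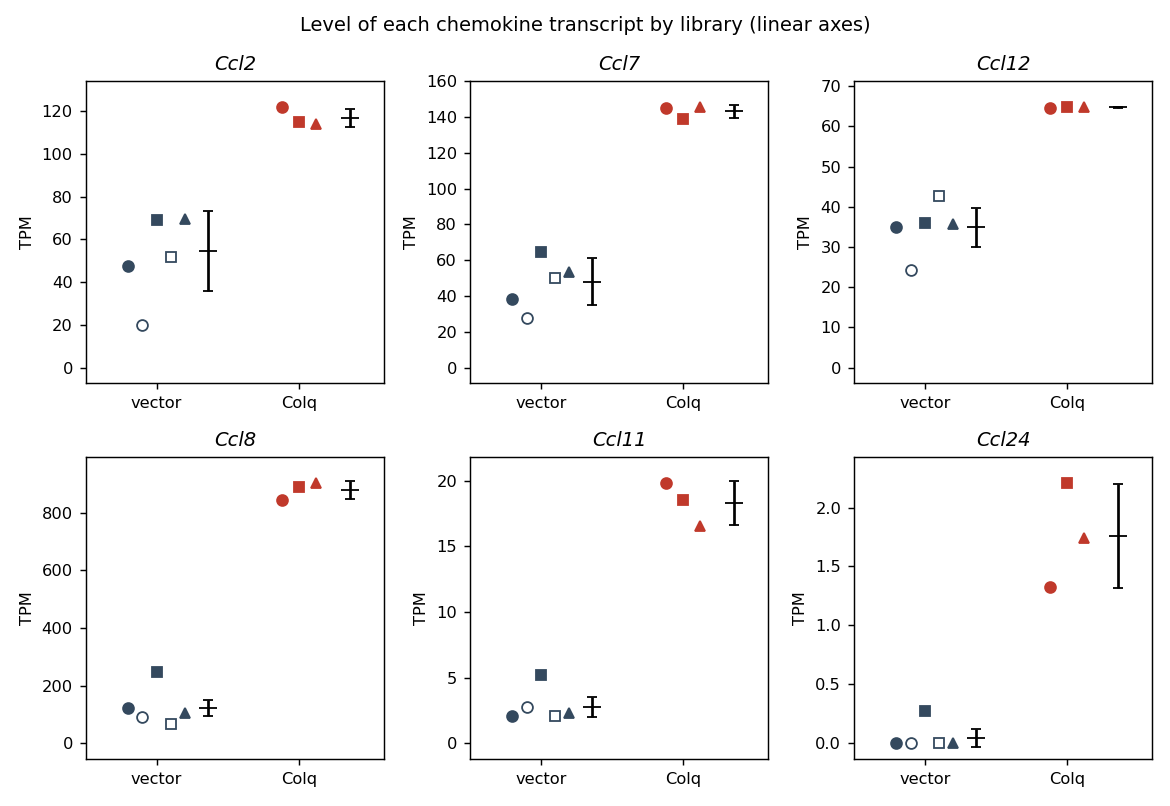
Level of each of the 6 chemokine transcripts, in TPM on linear axes. Blue marks are vector libraries and red marks Colq libraries, circles, squares and triangles are tumors 1 to 3, open marks are second portions, and black bars are the mean ± SD over 3 tumors. In all 6 panels the lowest Colq library lies above the highest vector library.

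All 5 tested members were called higher, where 1556 of 13726 tested genes (11.3%) were. The lowest Colq library lay above the highest vector library for all 6 members and for 9.92% of tested genes. Over all tested genes the median log2 fold change was -0.50, and 59.6% were called lower, so the same changes were also read on other scales. Short genes stood higher: of the 1622 tested genes with an exonic length under 1500 bases, a limit chosen after the data were seen, 33.4% were called higher, with a median of 0.17. The members are all short, with exonic lengths of 511 (Ccl8), 537 (Ccl12), 801 (Ccl7), 1082 (Ccl11), 1138 (Ccl2) and 1295 bases (Ccl24).

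Scaling the tumors by size factors, which brought the median of all tested genes to -0.0013, raised the log2 fold changes to 3.43 for Ccl8, 2.85 for Ccl11, 2.17 for Ccl7, 1.72 for Ccl2 and 1.44 for Ccl12. All 5 were called, as were 28.0% of tested genes in that direction. Removing a loess trend of length and GC lowered them to 2.47 for Ccl8, 2.08 for Ccl11, 1.21 for Ccl7, 0.91 for Ccl2 and 0.42 for Ccl12, with 19.6% of genes called higher. All 5 passed there too, Ccl2 (limma, adjusted p = 0.029) and Ccl12 (limma, adjusted p = 0.030) by the least. The change of Ccl12 thus ranged from 0.42 to 1.44 with the scale, while Ccl8 stayed above 2.4.

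**Figure D2:**
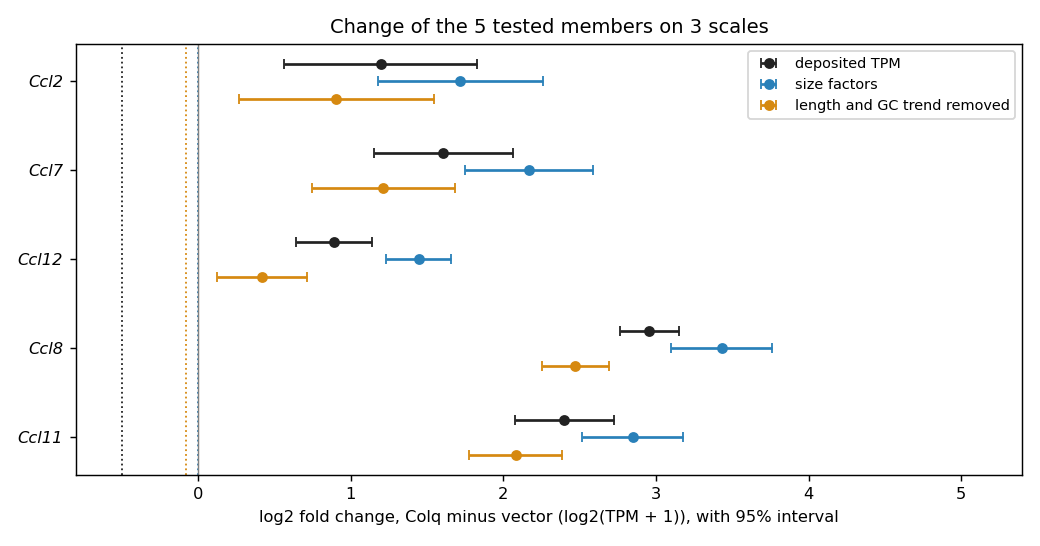
Log2 fold change (Colq minus vector, on log2(TPM + 1)) of the 5 tested chemokine genes, with 95% intervals, from deposited TPM (black), after size factors (blue) and with the length and GC trend removed (orange). Dotted lines mark the median of all tested genes on each scale, and no interval reaches 0.

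The authors' deposited table, which is on its own count-based scale with a median log2 fold change of 0.066, listed all 6 genes as higher in Colq tumors. Its log2 fold changes in the authors' deposited table were 3.40 (SE 0.131) for Ccl8, 3.28 (SE 0.258) for Ccl11, 2.13 (SE 0.163) for Ccl7, 1.65 (SE 0.192) for Ccl2 and 1.44 (SE 0.179) for Ccl12. Ccl24 stood at 5.08 with a wide error (SE 1.25, adjusted p = 2.1e-04 in the authors' deposited table). That table called 20.1% of 19153 genes higher and 20.4% lower, and it comes from the same series of tumors, so it is no separate evidence.

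The order of levels differed between groups only in the middle. In Colq tumors it ran Ccl8, Ccl7, Ccl2, Ccl12, Ccl11 and Ccl24, and no neighbours overlapped. In vector tumors it ran Ccl8, Ccl2, Ccl7, Ccl12, Ccl11 and Ccl24, with the tumors of Ccl2 and Ccl7, and of Ccl7 and Ccl12, overlapping.

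Together the 6 transcripts made up 1198, 1231 and 1247 TPM in the Colq libraries. In the vector libraries the sums were 246.3 and 166.9 TPM (tumor 1), 421.6 and 211.9 TPM (tumor 2) and 266.0 TPM (tumor 3). Averaged by tumor this was 0.123% of all TPM for Colq and 0.0264% for vector. Ccl8 made up most of the difference, and without it the sums were 345.1 ± 7.05 and 140.3 ± 36.1 TPM (SD, n = 3 each).

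The make-up of the sum is described by the share of each member. Ccl8 took 71.8 ± 1.12% of the sum in Colq tumors and 46.9 ± 6.77% in vector tumors (SD, n = 3 each). The shares of the other MCPs were smaller in Colq tumors, at 9.56% against 20.5% for Ccl2, 11.7% against 18.1% for Ccl7 and 5.28% against 13.4% for Ccl12. The share of Ccl11 was 1.5% against 1.06%. In the second portion of vector tumor 2, Ccl8 took 30.9%, the lowest share of any library.

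**Figure D3:**
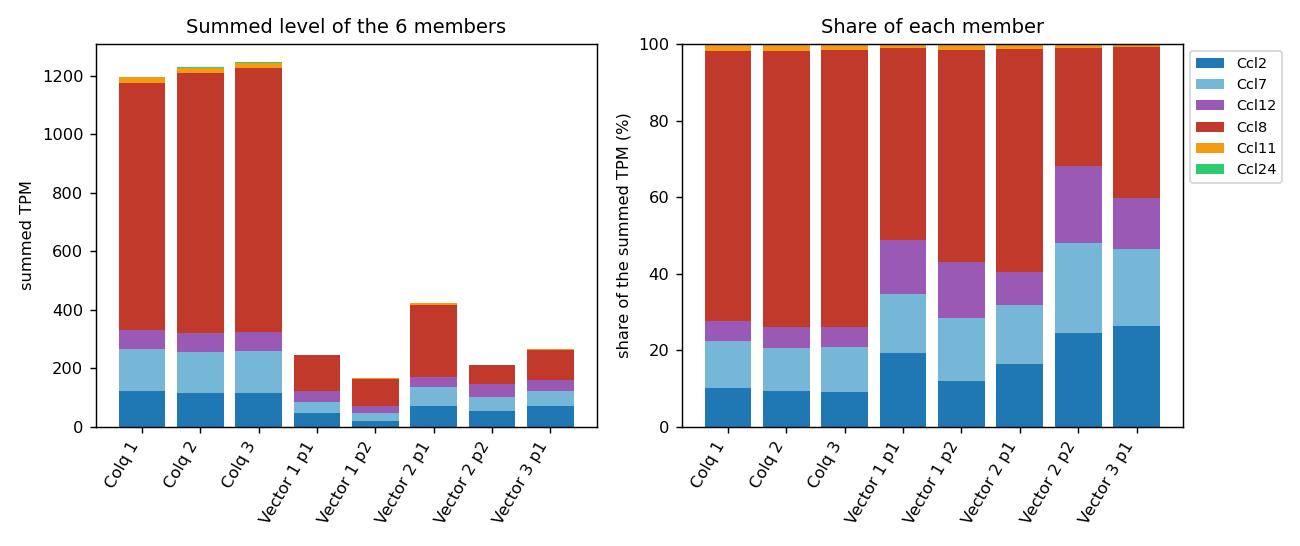
Left, summed TPM of the 6 chemokine transcripts in each library; right, the share of each in that sum (%). Colors are genes, p1 and p2 are portions of a vector tumor, and the red Ccl8 part covers 70.5% to 72.5% of the Colq bars and 30.9% to 58.4% of the vector bars.

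A ratio of 2 members within a library does not depend on how that library was scaled. Of the 15 pairs, 13 had log2 ratios that did not overlap between groups, each with an exact two-sided permutation p of 0.1 (0.115 after Benjamini-Hochberg adjustment over the pairs), the smallest p possible. No pair passed 0.05, which the design does not allow. Over all pairs of tested genes, 60.1% had groups apart in this way, so the count says little about the members. Ratios were formed after adding 0.1 TPM to each gene; with 1 TPM added 12 pairs were apart, with Ccl2 to Ccl24 and Ccl7 to Ccl24 overlapping and Ccl8 to Ccl11 apart.

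Among the MCPs, Ccl8 stood apart from its cluster neighbours. The log2 ratio of Ccl12 to Ccl8, the adjacent genes whose promoters are shown above, was -3.76 ± 0.051 in Colq tumors and -1.70 ± 0.16 in vector tumors (SD, n = 3 each), a difference of -2.06 (SE 0.099). For Ccl2 to Ccl8 the difference was -1.75 (SE 0.357), and for Ccl7 to Ccl8 it was -1.34 (SE 0.229). Smaller differences separated Ccl7 from Ccl12 (0.72, SE 0.137) and Ccl2 from Ccl7 (-0.41, SE 0.139). For Ccl2 to Ccl12 the groups overlapped, with a difference of 0.31 (SE 0.26; exact permutation p = 0.4, adjusted 0.4).

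Ccl8 and Ccl11, an MCP and an eotaxin that are not adjacent, differed little in ratio with 0.1 TPM added. The log2 ratio was 5.58 ± 0.18 in Colq tumors and 5.37 ± 0.12 in vector tumors (SD, n = 3 each), a difference of 0.21 (SE 0.125) with overlapping groups (exact permutation p = 0.3, adjusted 0.321). With 1 TPM added the difference was 0.56 with groups apart (exact permutation p = 0.1), so this rests on the added TPM. Ratios to Ccl24 turn on the added TPM, since Ccl24 was listed at 0 in most vector libraries: for Ccl8 to Ccl24 the difference was -0.91 with 0.1 TPM added and 1.56 with 1 TPM added.

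Portions of 1 vector tumor showed how far the members varied within a tumor. On the log2(TPM + 1) scale, the first portion of vector tumor 2 exceeded the second by 1.90 for Ccl8 and 1.02 for Ccl11. In vector tumor 1 the portions differed by 1.22 for Ccl2 and by 0.42 for Ccl8. For Ccl8 the portions of tumor 2 thus lay farther apart than the means of the vector tumors, whose range was 0.28. The range over Colq tumors, with 1 library each, was 0.0029 for Ccl12 and 0.065 to 0.46 for the other members.

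The receptors of these chemokines were examined next. Of the 7 listed, 4 were tested and 3 were called higher, where 11.3% of all tested genes were. Their median log2 fold change was 0.96, against -0.50 for all tested genes. Ccr2, the receptor of Ccl2, Ccl7 and Ccl12 on monocytes, averaged 13.7 ± 0.40 TPM with Colq and 6.32 ± 1.33 TPM with vector (SD, n = 3 each; log2 fold change 1.03, limma, adjusted p = 0.00033). Ccr1, a myeloid receptor that also binds Ccl7, stood at 8.89 ± 0.64 and 4.13 ± 0.35 TPM (0.96, limma, adjusted p = 0.00014). Ackr1, a scavenging receptor of venular endothelium and red cells, rose from 0.46 ± 0.24 to 1.73 ± 0.29 TPM (0.96, limma, adjusted p = 0.0032). It passed the minimum of 1 TPM only through its level in Colq tumors, so the filter favored its call.

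The other 3 receptors described here were under the minimum of 1 TPM. Ccr3, the eotaxin receptor, averaged 1.09 ± 0.079 TPM with Colq and 0.028 ± 0.037 TPM with vector, and Ccr8 at 0.71 ± 0.066 and 0.54 ± 0.25 TPM. Ackr2, a decoy receptor of inflammatory CC chemokines, varied widely at 0.70 ± 1.06 and 0.37 ± 0.22 TPM. The 3 receptor calls held after size factors and with the length and GC trend removed.

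Of 14 other CC chemokines listed, 13 were in the table and 11 were tested: 8 were called higher and 1 lower, with a median of 1.09. Among all tested genes 11.3% were called higher, and among those with an exonic length under 1500 bases 33.4% were. Ccl6, a myeloid chemokine of the mouse, averaged 344.9 ± 3.23 TPM with Colq and 35.8 ± 5.32 TPM with vector (SD, n = 3 each; log2 fold change 3.34, limma, adjusted p = 3.4e-07). Its relative Ccl9 stood at 107.7 ± 6.67 and 12.1 ± 4.01 TPM (3.12). Both fold changes exceeded the 2.96 of Ccl8, a difference that was not tested, and the genes lie outside the 81.2 kb of the cluster. Ccl19, which guides dendritic and naive T cells (1.62), and Ccl22, a ligand of Ccr4 (1.25), rose at low levels of under 3 TPM. Both were under 1 TPM with vector and passed the minimum only through Colq tumors. The exception was Ccl21a, a lymphatic chemokine, at 1.24 against 4.05 TPM (-1.0, limma, adjusted p = 0.0058), whose call was lost after size factors (limma, adjusted p = 0.062).

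Cytokines known to induce the members moved unequally. Of 15 listed, 7 were tested, with 4 called higher and 2 lower, where 11.3% and 59.6% of all tested genes were. Il33, an alarmin of stromal and epithelial cells, averaged 23.8 ± 2.47 TPM with Colq and 3.62 ± 1.69 TPM with vector (SD, n = 3 each; log2 fold change 2.54, limma, adjusted p = 0.00011). Il1b (0.89) and Ifng (0.75), inflammatory inducers of MCPs, also rose. Il4, which with Il13 induces eotaxins, was at 0.96 ± 0.46 and 0.25 ± 0.23 TPM, and Il13 at 0.017 TPM and 0, both under the minimum. Csf1, the growth factor of macrophages, was lower (-0.76), as was Tgfb1 (-0.52), and neither was called after size factors.

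Of the signalling proteins and transcription factors behind these genes, 18 were tested, with 2 called higher and 8 lower. The median of -0.48 is near the -0.50 of all tested genes, and the share called lower is below the 59.6% of all tested genes. The share called higher is near the 11.3% of all tested genes. After size factors 6 were called higher and 6 lower, with a median of 0.025. Of all 13726 tested genes, 28.0% were called higher and 3505 lower on that scale. Stat6, which acts downstream of Il4 and Il13, fell by 1.09 on the log2 scale, Stat3 fell by 1.10, and the NF-kB subunits Rela and Nfkb2 fell by 1.07 and 0.94. These 4 were called lower after size factors too, with log2 fold changes of -0.53, -0.53, -0.51 and -0.40. The interleukin receptor Il1r1 (0.45) and the transcription factor Cebpd (0.47) rose. These are transcript levels in whole tumors and do not measure the activity of the proteins.

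Proteins that act on chemokine mRNAs or on the secreted chemokines were also listed. Of 6 RNA stability factors, 0 were called higher and 4 lower (median -0.78), near the share called lower over all tested genes (59.6%): Khsrp (-1.27) and Zfp36l1 (-0.92) and Zfp36l2 (-0.66), which promote decay, and Elavl1 (-0.90), which stabilizes its targets. After size factors 2 were called higher and 3 lower, where 28.0% of all tested genes were called higher and 3505 of 13726 lower. Of 5 proteases that trim these chemokines, 4 were called higher and 1 lower (median 0.99), where 11.3% and 59.6% of all tested genes were. Mmp12, a macrophage elastase, rose from 14.6 ± 2.23 to 35.2 ± 2.20 TPM (SD, n = 3 each, log2 fold change 1.25). Dpp4, which removes the terminal dipeptide of eotaxin, rose from 0.47 to 2.13 TPM (1.10), and passed the minimum of 1 TPM only through Colq tumors. Mmp2, which cleaves Ccl7, also rose (0.72), whereas Mmp14, a membrane-bound protease, fell by 1.29 on the log2 scale.

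**Figure D4:**
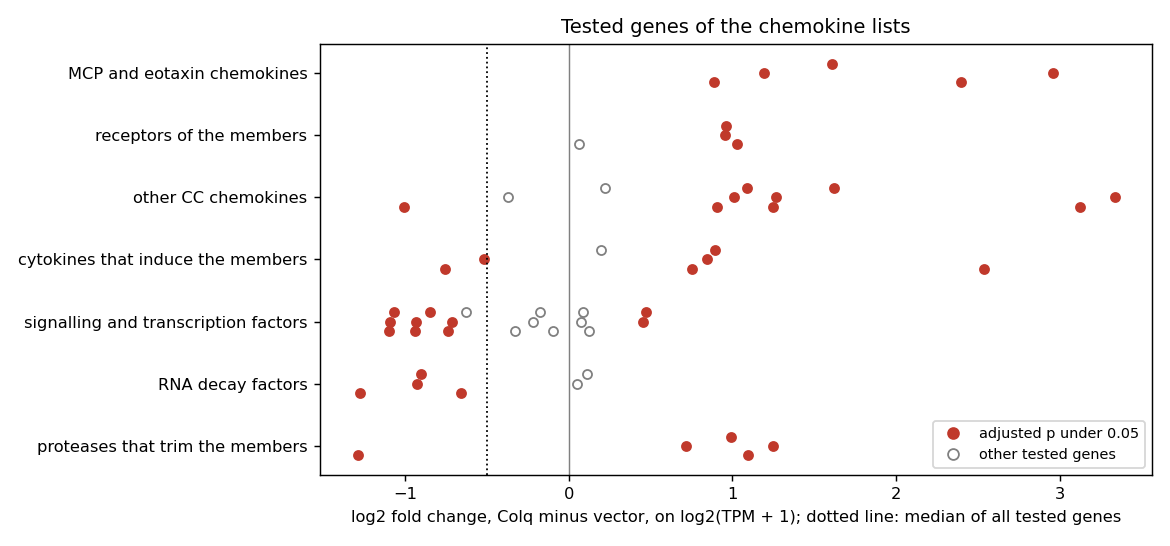
Log2 fold change (Colq minus vector, on log2(TPM + 1)) of each tested gene of the chemokine lists, 1 row a list. Red points passed an adjusted p of 0.05, open points did not, and the dotted line is the median of all tested genes (-0.50); the chemokine rows lie mostly to the right of 0 and the signalling and RNA decay rows mostly to the left.

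Markers of cells that make or follow these chemokines were measured in the same libraries. Their calls stand beside 11.3% of all tested genes called higher and 59.6% called lower. In bulk tumors, fewer cells of a type and less RNA per cell cannot be told apart. Summed macrophage markers ran from 1584 to 1632 TPM with Colq and from 462.2 to 1156 TPM with vector, but of 10 markers 1 was called higher, Lyz2 (2.25), and 1 lower, Mertk (-0.54). After size factors 8 of 10 were called higher, where 28.0% of all tested genes were. Markers of resident perivascular macrophages summed to 257.0 to 272.7 and 56.2 to 122.7 TPM, with 6 of 9 tested called higher, among them Cd209f (3.20), Cbr2 (2.44), Folr2 (2.33) and Pf4 (2.09), and Stab1 called lower (-0.57).

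Classical monocyte markers, the targets of Ccl2, summed to 322.5 to 340.4 TPM in Colq libraries and 98.6 to 167.2 TPM in vector libraries. Of 10, 5 were called higher, led by Plac8 (2.91) and F13a1 (1.77), and 2 lower, Hp (-1.0) and Chil3 (-0.66). The shares over all tested genes were 11.3% higher and 59.6% lower. Ly6c2, which defines these cells in the mouse, stood at 22.9 ± 2.63 and 14.7 ± 4.61 TPM (SD, n = 3 each). Plac8 made up 200.9 TPM of the sum in Colq tumors, so the sum rests largely on it.

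Eosinophil markers, the targets of the eotaxins, summed to 15.9 to 21 TPM in Colq libraries and 0.26 to 3.44 TPM in vector libraries. Of 8 in the table, 2 were tested and both were called higher, Ear2 (14.5 against 1.63 TPM) and Alox15 (2.00 against 0.105 TPM). Alox15 passed the minimum of 1 TPM only through its level in Colq tumors, so its call adds little. Among all tested genes, 11.3% were called higher. Siglecf, a surface marker of eosinophils, was at 0.63 ± 0.16 and 0.032 ± 0.028 TPM (SD, n = 3 each). Epx, the eosinophil peroxidase, was listed at 0 in every library. Ear2 makes up most of the sum and is also made by macrophages and monocytes.

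The first portion of vector tumor 2, the highest vector library for Ccl8, Ccl11 and Ccl24, was also the highest vector library in the summed markers of macrophages (1156 TPM), resident macrophages (122.7), monocytes (167.2), eosinophils (3.44) and skeletal muscle (184.7). That library was also highest in pan leukocyte markers (251.8). In fibroblast markers it was not, at 401.2 against 421.0 TPM in the first portion of vector tumor 1. Nor was it highest in mast cell, adipocyte, keratinocyte, endothelial or melanoma markers. Of 12 fibroblast markers, 7 were called higher and 3 lower, with sums of 455.7 to 490.3 and 217.0 to 421.0 TPM. The rises were led by Dpt (3.92) and Clec3b (3.86), and the falls by Postn (-1.15) and Col1a1 (-0.91). All 10 skeletal muscle markers (median 3.66) and 5 of 7 keratinocyte markers were called higher, with 4 of 5 mast cell, 1 of 3 adipocyte and 3 of 5 pan leukocyte markers. Of all tested genes, 11.3% were called higher. Of endothelial markers 5 of 6 were called lower, of melanoma markers 6 of 7 and of mast cell markers 1, where 59.6% of all tested genes were. Most marker sums did not overlap between groups. Those of skeletal muscle, macrophages, resident macrophages, monocytes, eosinophils, fibroblasts and pan leukocytes were higher in every Colq library. Those of endothelial and melanoma markers were lower in every Colq library. Among single tested genes, 9.92% had the lowest Colq library above the highest vector library. No such share was computed for sums of genes, or for genes lower in every Colq library, so these sums are a description only. The keratinocyte sum overlapped, at 48.3 to 56.8 TPM in Colq libraries and 4.45 to 244 TPM in vector libraries. Its highest value was in the first portion of vector tumor 1. The sums of mast cell and adipocyte markers overlapped too. The part of these cell types in the chemokine values was not tested.

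Each chemokine was therefore also set against markers of likely source cells within the same library. Per summed level of the macrophage genes Adgre1, Csf1r, Cd68, Mertk and Fcgr1, Ccl8 was higher in Colq tumors by 2.79 (SE 0.217), Ccl11 by 2.58 (SE 0.170), Ccl24 by 3.70 (SE 0.241), Ccl7 by 1.45 (SE 0.374) and Ccl12 by 0.73 (SE 0.282) on the log2 scale. The groups were apart for these 5 (exact permutation p = 0.1 each, adjusted 0.12), as they were in this direction for 6.4% of tested genes. For Ccl2 the difference was 1.04 (SE 0.507) and the groups overlapped (exact permutation p = 0.2, adjusted 0.2), since vector tumor 3 held nearly as much Ccl2 per macrophage gene as the Colq tumors.

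Per summed level of the fibroblast genes Col1a1, Col1a2, Col3a1, Pdgfra and Dcn, the differences were 2.59 (SE 0.171) for Ccl8, 2.38 (SE 0.233) for Ccl11, 3.50 (SE 0.418) for Ccl24, 1.25 (SE 0.372) for Ccl7, 0.83 (SE 0.479) for Ccl2 and 0.53 (SE 0.237) for Ccl12. All 6 had groups apart (exact permutation p = 0.1 each, adjusted 0.1), as did 5.47% of tested genes in this direction. The value of Ccl24 depends on the added TPM: with 1 TPM it was 1.22 per macrophage gene and 1.01 per fibroblast gene.

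These ratios also depend on the marker genes. With all 10 listed macrophage markers, Lyz2 among them, a choice made after the data were seen, the difference was 1.75 for Ccl8, 1.53 for Ccl11 and 2.65 for Ccl24, each with groups apart. It was 0.40 for Ccl7, -0.0099 for Ccl2 and -0.32 for Ccl12, each with overlapping groups. With all 12 fibroblast markers it was 2.36 for Ccl8, 2.15 for Ccl11, 3.27 for Ccl24 and 1.02 for Ccl7 with groups apart, and 0.61 for Ccl2 and 0.30 for Ccl12 with overlapping groups. The single fibroblast markers Dpt (3.92) and Clec3b (3.86) had larger log2 fold changes than Ccl8 (2.96). Ccl8 and both eotaxins thus stayed higher per marker sum under both choices, while Ccl2, Ccl7 and Ccl12 did so only with some of the marker sets.

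**Figure D5:**
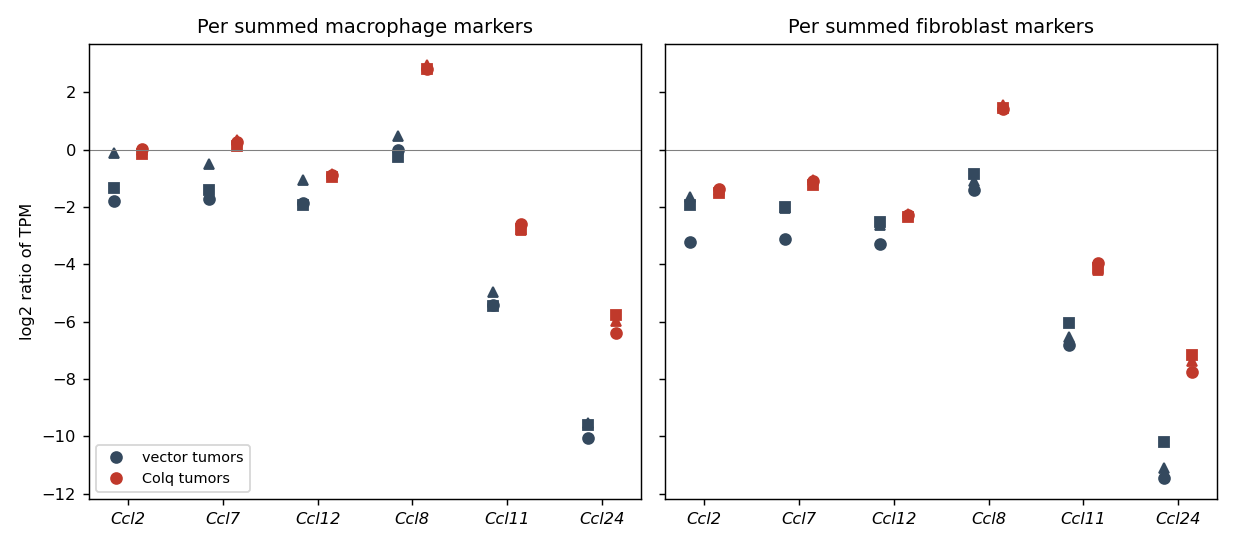
Log2 ratio of each chemokine (TPM + 0.1) to summed TPM of 5 macrophage genes (left) or 5 fibroblast genes (right), 1 mark a tumor (circles, squares and triangles are tumors 1 to 3). Colq tumors (red) lie above vector tumors (blue) in each column except Ccl2 per macrophage gene, where vector tumor 3 (-0.10) reaches the Colq range (-0.13 to 0.037).

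The genes with the nearest profiles over the 6 tumors were found by the root mean square difference of log2(TPM + 1), after each gene was centred on its own mean. Since the groups differ, this measure mostly finds genes with a change of like size. Nearest to Ccl8 were Plac8 (0.057), S100a4 (0.11) and the muscle gene Myoz1 (0.12), and nearest to Ccl11 were S100a6 (0.086), Fxyd2 (0.092) and Lyz2 (0.11). Ccl7 was nearest to Marco (0.11), a scavenger receptor of macrophages, Rnase6 (0.14) and the muscle enolase Eno3 (0.16). Nearest to Ccl2 were Zfp968-ps (0.16), Naaa (0.22) and Cd200r1 (0.23). Ccl12 was nearest to Rpa3 (0.054), Rab44 (0.069) and Fabp7 (0.071), and Ccl24 to Snrpert (0.059), Cfp (0.11) and Dhrs7c (0.11). The distances of Ccl24 rest on the added 1 TPM, since it was listed at 0 in most vector libraries.

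Among the members themselves, Ccl2 and Ccl7, neighbours in the cluster, were nearest at 0.25, followed by Ccl7 and Ccl24 at 0.29; Ccl8 and Ccl11, Ccl2 and Ccl12, and Ccl12 and Ccl24 were each at 0.30. Ccl8 and Ccl12, also neighbours, were the farthest apart at 1.04. Distance along the chromosome thus did not order the profiles of these 5 genes. The added 1 TPM understates the change of Ccl24 (1.76 against 0.045 TPM). Its nearness to Ccl7 and Ccl12 here thus does not show a like fold change.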

How the data were processed

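RNA of homogenized tumors was made into poly-A libraries without strand information, per the labels' protocols. The deposited expression values are log2(TPM + 1): 99.89% return to TPM with 2 decimals, within 1% of the last decimal. RSEM, DESeq2 and build mm39 are named in the submitters' processing notes; aligner, versions and annotation are not stated. From the authors' deposited comparison, the log2 fold change, its SE and the adjusted p-values were used, its direction read from the sign of Colq; 26581 IDs (96.1%) matched a symbol, and its treatment of portions is not stated. The table of T and B cell receptor repertoires was not used.

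Portions of a vector tumor were averaged on the log2 scale, giving 3 tumors against 3. The fit took genes averaging 1 TPM or more, as log2(TPM + 1), using lmFit and trended eBayes of limma 3.58.1 (R 4.3.3), adjusted by Benjamini-Hochberg over 13726 genes at 0.05; it was tested on simulated data. Fold changes are Colq minus vector. A gene under 1 TPM with vector could pass the minimum of the fit only through the Colq tumors. Calls of such genes, among them Colq, Ackr1, Alox15, Ccl17, Ccl19, Ccl22, Dpp4, Il10 and Krt15, were favored by the filter. Ratios went to exact two-sided permutation tests over tumors. Other settings changed pseudocount, filter, scale, length and GC content (loess, span 0.5, GRCm38 lengths, for 96.2% of tested genes), portions, moderation and tumors. Python 3.11.15, numpy 2.4.6, pandas 2.3.3 and matplotlib 3.10.9 did the rest.

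Members and lists were chosen with earlier results of these data known. Named were all members, Colq, the receptors (1 of them is not reported here), up to 4 genes of smallest p and 2 of opposite direction per list, and the 3 nearest profiles per member, passing over numbered gene models; Ly6c2, Siglecf, Epx, Il4 and Il13 were named besides for their known roles.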

Additional observations from a re-analysis of the deposited data

Results flagged for a closer look

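In 2 cases 1 library stood apart from the other vector libraries by Dixon's criterion, with 7 measures examined. Chance meets it in about 1 of 20 groups of independent, normal values, but these libraries include portions of the same tumor. The first portion of vector tumor 2 held 5.21 TPM of Ccl11, against 2.06 to 2.73 TPM in the other 4 vector libraries. The same library held 0.27 TPM of Ccl24, which was listed at 0 in the other 4. Any value above 0 would have met the criterion there.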

How the results depend on the processing

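The 5 calls among the members were made under every alternative run except when the Colq libraries were averaged into 1, where 4 were (Ccl2 lost, limma, adjusted p = 0.11), and with no filter 6 were, Ccl24 included (limma, adjusted p = 0.00064). Over 21 alternatives the log2 fold change ranged from 0.85 to 1.72 for Ccl2 (lowest without vector tumor 1), 1.21 to 2.17 for Ccl7, 0.42 to 1.44 for Ccl12, 2.47 to 3.43 for Ccl8 and 2.08 to 2.85 for Ccl11. Over all tested genes, 1556 were called higher and 8181 lower; this became 3843 and 3505 with size factors, 3150 and 4243 with quantile normalization, and 2588 and 3649 with the length and GC trend removed. Averaging the Colq libraries into 1 sample left fewer samples, and 788 were called higher. Leaving out 1 tumor at a time gave 1310 to 1549 higher and 7484 to 8216 lower. Of 228 ratio alternatives, 5 changed sign. With 1 TPM added these were Ccl7 to Ccl24 (0.21), Ccl8 to Ccl24 (1.56) and Ccl11 to Ccl24 (1.01). With all 10 listed macrophage markers, chosen after seeing the data, they were Ccl2 (-0.0099) and Ccl12 (-0.32) per macrophage marker. With the replicate number as a block (replicate block), 1526 genes were called higher and 7928 lower, with all 5 members called. Deviations of same-numbered tumors from their group means correlated at 0.030, 0.0070 and 0.044. Those of differently numbered tumors correlated at -0.054 to 0.021. With so few tumors this cannot show whether the samples share more than a number. TPM keep no depth, so the limit on low members such as Ccl24 is unknown.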
